A study of Mus musculus with 22 samples.

Results

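The 10 genes described here encode cyclic nucleotide phosphodiesterases, and they are 10 of the 24454 genes counted in the series. They are *Pde2a*, *Pde3a*, *Pde3b*, *Pde4a*, *Pde4b*, *Pde4d*, *Pde5a*, *Pde7a*, *Pde8a* and *Pde10a*. The members were chosen by the measured counts of *Pde2a* and extended to its gene family. *Pde2a* was the only gene called, at an adjusted p under 0.01, for a change of the endothelial population difference from E10 to E11. This does not show that other genes lack such a change. The values of *Pde2a* in the 2 endothelial populations are therefore given as a description, with no test.

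VE-Cadherin-positive cells were sorted from the aorta-gonad-mesonephros (AGM) region, the site of the embryo where endothelial cells turn into blood cells, of untreated C57BL/6 embryos at E9.5, E10 and E11, and each of the 22 libraries was made from 25 cells. CD44Neg cells, which the labels call endothelial, gave 10 libraries, with 4 from E9.5, 3 from E10 and 3 from E11. CD44LoKitNeg cells, called haemogenic endothelial (the endothelium that gives rise to blood), gave 6 libraries, with 1 from E9.5, 2 from E10 and 3 from E11. CD44LoKitPos cells, called pre-HSPC (precursors of haematopoietic stem and progenitor cells), gave 3 libraries, with 1 from E9.5 and 2 from E10, and CD44High cells, called HSPC, gave 3 libraries, all from E11. The dates in the labels change with the stage, so stage and date cannot be told apart, and no CD44LoKitPos library from E11 and no CD44High library from an earlier stage was analysed here. The labels do not say whether libraries of a group came from separate embryos or litters, so the p-values measure the spread between these libraries, which may be technical.

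Phosphodiesterases hydrolyse the second messengers cAMP and cGMP and so limit both the duration and the reach of the signals that receptors start through adenylyl and guanylyl cyclases. PDE2A acts on both nucleotides and its cAMP hydrolysis is stimulated by cGMP, whereas the PDE3 enzymes act on both but are known for cAMP hydrolysis that cGMP inhibits. PDE4, PDE7 and PDE8 enzymes are specific for cAMP, PDE5A is specific for cGMP, and PDE10A acts on both. In endothelium, cAMP strengthens the barrier between cells, and cAMP signalling is known to act on the emergence of blood cells in the AGM.

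Levels are given as normalized CPM, counts set relative to the library's total and scaled by the trimmed mean of M-values, and libraries held from 3912350 to 8657546 counts. A floor of 3 counts, taken as the detection limit, corresponded to 0.348 to 0.816 normalized CPM per library and covers counting error only. Folds written as "at least" use this floor and are not strict bounds. Libraries of the same group and stage could hold 0 beside 48 counts, as for *Pde5a* in CD44Neg at E11. The sorted cells were checked against marker lists, given as the summed normalized CPM of each list. The endothelial list summed to 3950 to 7167 in CD44Neg, 4106 to 10073 in CD44LoKitNeg and 920 to 2037 in CD44LoKitPos libraries. In the CD44High libraries it summed to 16.8 to 90.3, with *Cdh5*, the gene of the VE-Cadherin used for the sort, at 0 counts in all 3. The macrophage list summed to 3505 to 5160 in CD44High, with counts for 9 of 9 genes, against 3.22 to 24.6 in CD44Neg, 0 to 67.2 in CD44LoKitNeg and 242 to 284 in CD44LoKitPos libraries. Every result on CD44High below rests on these 3 libraries, and their macrophage transcripts move with the label. The mesenchyme and smooth muscle list summed to 0.272, 679 and 920 in these 3 libraries, so that 1 stood apart, and to 164 to 295 in CD44LoKitPos. The erythroid list summed to 58.8 to 285 in CD44High and to 9.93 to 29.2 in CD44LoKitPos. *C1qa*, *C1qb*, *C1qc* and *Adgre1* were at 0 in the other 3 populations. The blood list summed to 183 to 326 in CD44Neg, 94.96 to 379 in CD44LoKitNeg, 615 to 1761 in CD44LoKitPos and 2337 to 3604 in CD44High. In these bulk libraries, fewer cells of a type and less RNA per cell cannot be told apart.

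In GRCm38 (mm10) coordinates of GENCODE M21, *Pde2a* lies on chr7:101421691-101512827, *Pde8a* on chr7:81213596-81334533 and *Pde3b* on chr7:114415281-114539251. *Pde3a* lies on chr6:141249269-141507448, *Pde4b* on chr4:102087543-102607259, *Pde4a* on chr9:21165714-21213248 and *Pde4d* on chr13:108449948-109953461. *Pde5a* lies on chr3:122728947-122859374, *Pde7a* on chr3:19223108-19311322 and *Pde10a* on chr17:8525372-8986648. *Pde7a* is on the minus strand and the other 9 are on the plus strand. The counting strand is not given in the sources used here, so reads shared with overlapping genes cannot be told apart. *Pde2a* shares 3955 exon bases with *Gm45837* on its own strand, and *Pde3a* shares 741 with the antisense *Gm28523*. *Pde5a* and *Pde7a* share 55 and 48 with antisense genes. Neither *Gm45837* nor *Gm28523* is a row of the count table.

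The cAMP response element is the DNA site of the CREB, CREM and ATF1 factors, so the promoters of the members were searched for it on both strands in the 250 bases upstream of each RefSeq start (GRCm38.p6). Starts were matched for 7 of the 10 members, with 17 windows in all; *Pde3a*, *Pde3b* and *Pde7a* had no matched start. The full element TGACGTCA was in 0 of the 17 windows and in 1.5% of 32851 mouse windows of the same length. Its shorter core TGACG, which the full element also contains, was in 3 of 17 windows (17.6%), in *Pde4a*, *Pde4b* and *Pde8a*, and in 17.8% of all windows. The RBPJ core TGGGAA was in 4 of the 17 windows and in 21.6% of all windows, and the RUNX core TGTGGT was in 6 of 17 and in 14.0% of all. Both were searched because Notch and RUNX1 act in this tissue. A match is a string of letters and not a known site. The windows of the most upstream matched start of *Pde2a*, of *Pde4b* and of *Pde8a*, the members that carry the stage results, are printed 5′ to 3′ on the gene's strand, with the core TGACG, read on either strand, in capitals. The counts do not show which start was used.
Pde2a chr7:101421441-101421690: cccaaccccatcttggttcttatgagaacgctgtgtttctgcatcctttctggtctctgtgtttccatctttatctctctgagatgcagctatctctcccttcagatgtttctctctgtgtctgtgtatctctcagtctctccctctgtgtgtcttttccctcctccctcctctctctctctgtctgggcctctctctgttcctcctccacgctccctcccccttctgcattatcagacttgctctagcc
Pde4b chr4:102421305-102421554: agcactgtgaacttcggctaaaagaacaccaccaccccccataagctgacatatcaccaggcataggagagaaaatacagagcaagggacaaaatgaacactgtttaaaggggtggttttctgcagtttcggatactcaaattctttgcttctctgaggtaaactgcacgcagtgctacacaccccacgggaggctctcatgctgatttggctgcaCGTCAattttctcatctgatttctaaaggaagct
Pde8a chr7:81213015-81213264: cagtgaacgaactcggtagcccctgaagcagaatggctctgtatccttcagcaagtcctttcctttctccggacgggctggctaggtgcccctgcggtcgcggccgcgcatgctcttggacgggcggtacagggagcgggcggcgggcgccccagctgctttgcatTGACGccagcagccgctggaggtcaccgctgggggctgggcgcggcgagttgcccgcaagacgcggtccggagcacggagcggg
The core begins 34 bases before the start in the *Pde4b* window and 84 bases before it in the *Pde8a* window, and the *Pde2a* window holds none.

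*Pde2a* was abundant in CD44Neg endothelium and low in the other populations. In CD44Neg libraries it measured 70.5, 108, 62.2 and 86.7 normalized CPM at E9.5, 193, 147 and 204 at E10, and 205, 159 and 217 at E11. In CD44LoKitNeg libraries it measured 7.30 at E9.5, 6.21 and 11.6 at E10, and 0 in all 3 libraries of E11. Each CD44LoKitNeg library lay below every CD44Neg library. In CD44LoKitPos libraries it measured 6.204 and 12.5 at E10 and 4.52 at E9.5, and in CD44High libraries 0, 3.20 and 5.17. The CD44Neg mean of 145 ± 59.4 (SD, n = 10) was separate from the next population in order, CD44LoKitPos at 7.76 ± 4.23 (n = 3), and the ranges of the 3 lower populations overlapped.

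The gap between the endothelial populations widened with stage. CD44Neg exceeded CD44LoKitNeg 11.2-fold at E9.5, where CD44LoKitNeg was a single library, and 20.3-fold at E10. At E11 all 3 CD44LoKitNeg libraries were at 0 counts, and with each put at its floor of 3 counts CD44Neg was at least 462-fold higher. Within CD44LoKitNeg, E11 was at least 20.02-fold lower than E9.5 and E10 together, whose mean was 8.38 ± 2.87 (n = 3). In a fit of population by stage over 11 libraries, the log2 difference of CD44LoKitNeg from CD44Neg was -4.28 at E10 and -13.12 at E11, and the change between them was -8.85. The E11 value is fitted against counts of 0, so neither it nor the change is a bound. This contrast chose the gene: it called 1 of 12403 genes (0.00806%). The gene just outside the threshold was *Nrp2*, a neuropilin of venous and lymphatic endothelium, at -5.08 at E10 and -12.37 at E11. The venous list, of which *Nrp2* is one of 4 genes, summed to 500 to 1117 normalized CPM in CD44Neg and to 43.4 to 210 in CD44LoKitNeg. The arterial list summed to 525 to 1356 and to 2770 to 5886 in the same order. The part of venous or arterial identity in the *Pde2a* values was not tested.

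The other 9 members had changes of the population difference from E10 to E11 between -1.36 for *Pde4b* and 1.59 for *Pde3a*. *Pde4b* was the only 1 of the 10 members whose CD44LoKitNeg libraries lay all above CD44Neg at E10 and all below at E11. These values are descriptive.

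**Figure D1:**
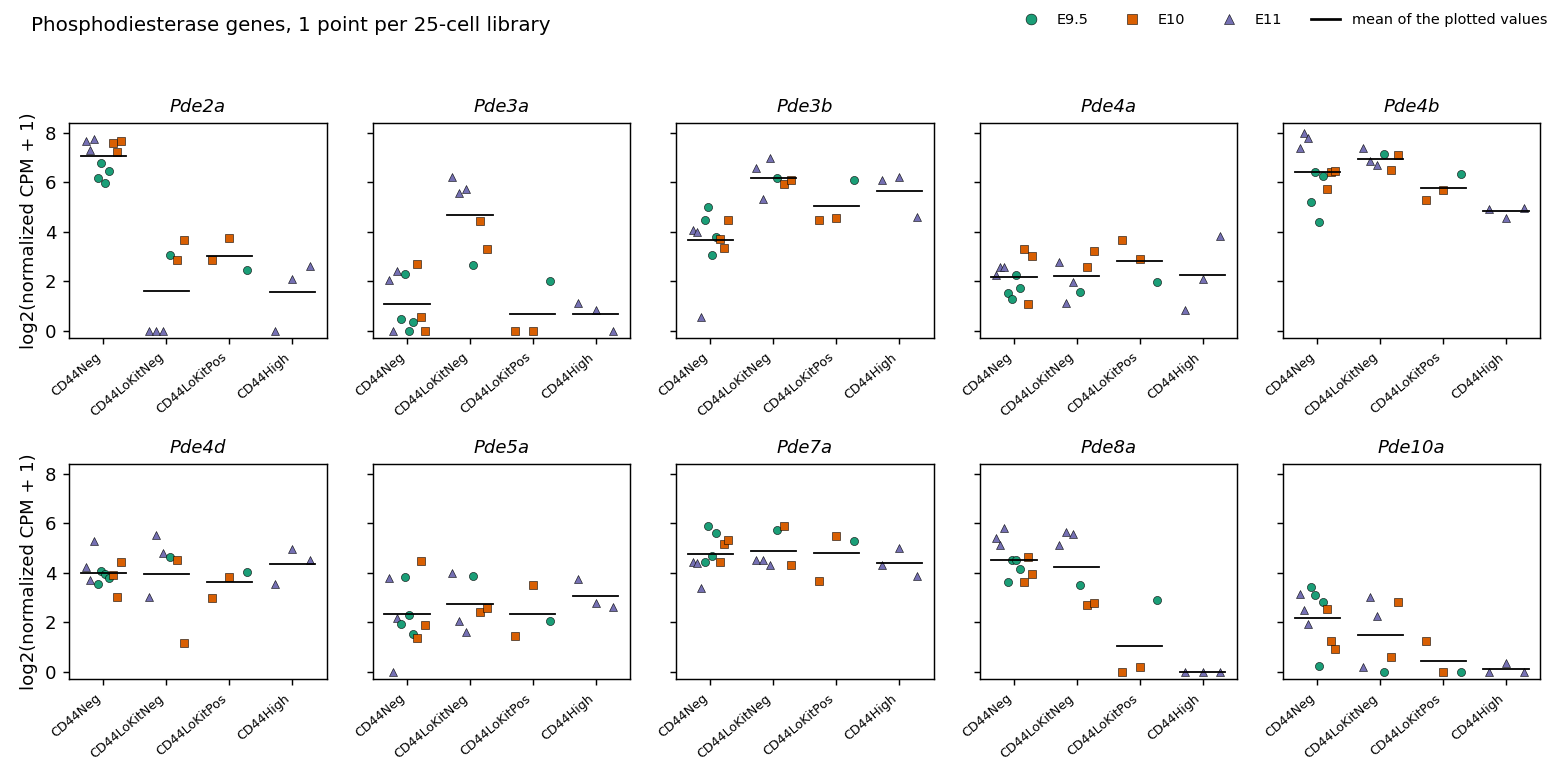
Level of each phosphodiesterase gene as log2(normalized CPM + 1) in the 22 libraries, by population, with colour and shape for the stage and a bar at the mean of the plotted values. *Pde2a* is high in the 10 CD44Neg libraries only, *Pde3a* in CD44LoKitNeg, and *Pde8a* is at 0 in the 3 CD44High libraries.

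The PDE3 genes, whose enzymes are inhibited by cGMP, were higher in CD44LoKitNeg than in CD44Neg. *Pde3a* measured 5.33 normalized CPM in the E9.5 library of CD44LoKitNeg, 20.8 and 8.93 at E10, and 72.3, 46.6 and 52.4 at E11. In CD44Neg it ranged from 0 to 5.43 over the 10 libraries, with a median of 0.413. The libraries overlapped only because the highest CD44Neg library, from E10, passed the E9.5 CD44LoKitNeg library, and within each stage the CD44LoKitNeg libraries were all above. The means were 34.4 ± 26.8 (n = 6) and 1.79 ± 2.15 (n = 10), and the edgeR quasi-likelihood test gave a log2 difference of 4.27 with an SE of 0.89 (adjusted p = 0.00201). *Pde3a* passed the count filter through CD44LoKitNeg, where it had 46 to 538 counts, against 0 to 28 in CD44Neg. With no filter the log2 difference was 4.32 (adjusted p = 0.00132).

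*Pde3b*, the isoform known for its part in insulin signalling, measured 71.9 normalized CPM at E9.5, 60.2 and 66.4 at E10, and 93.2, 38.6 and 124 at E11 in CD44LoKitNeg. In CD44Neg it ranged from 0.465 to 30.5, with a median of 13.9, so every CD44LoKitNeg library was above every CD44Neg library. The means were 75.6 ± 29.4 (n = 6) and 14.6 ± 8.45 (n = 10), with a log2 difference of 2.39 and an SE of 0.45 (adjusted p = 0.000889).

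In this comparison 2 of the 9 members tested were called, against 10.2% of the 11022 genes tested, at an adjusted p under 0.01. Since *Pde3a* passed the filter through the population where it is high, nothing is read from this count. The 7 other tested members had log2 fold changes from -0.62 to 0.38. The median over the 9 tested members, without *Pde2a*, was 0.18, beside 0.01 over all genes tested. The libraries of the populations did not overlap for 1 of these 9, *Pde3b*, beside 5.58% of all genes tested. All 10 members passed the count filter in every fit. With the stage as a covariate *Pde3b* stayed past the threshold (adjusted p = 0.0014), and *Pde3a* did not (log2 fold change 3.51, adjusted p = 0.0125). Within E11 alone the log2 fold changes were 4.55 for *Pde3a* (adjusted p = 0.0172) and 3.10 for *Pde3b* (adjusted p = 0.0616), and within E10 alone they were 2.98 and 2.22 (adjusted p = 0.400 and 0.0885).

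Between the endothelial populations the mesenchyme and smooth muscle list was higher on the same side as the PDE3 genes. It summed to 193 to 359 normalized CPM in CD44LoKitNeg and to 0.774 to 134 in CD44Neg, with counts for 10 of its 12 genes in CD44LoKitNeg, where *Col1a1* and *Myh11* were at 0. Within CD44LoKitNeg it was lower at E11, at 193 to 225 against 247 to 359, while *Pde3a* was higher there. The neural list summed to 121 to 708 and to 77.3 to 153, with *Sox2*, *Sox10* and *Elavl3* at 0 in CD44LoKitNeg. The erythroid list summed to 21.5 to 61.3 and to 2.61 to 23.7. The part of these lists in the *Pde3a* and *Pde3b* differences was not tested.

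**Figure D2:**
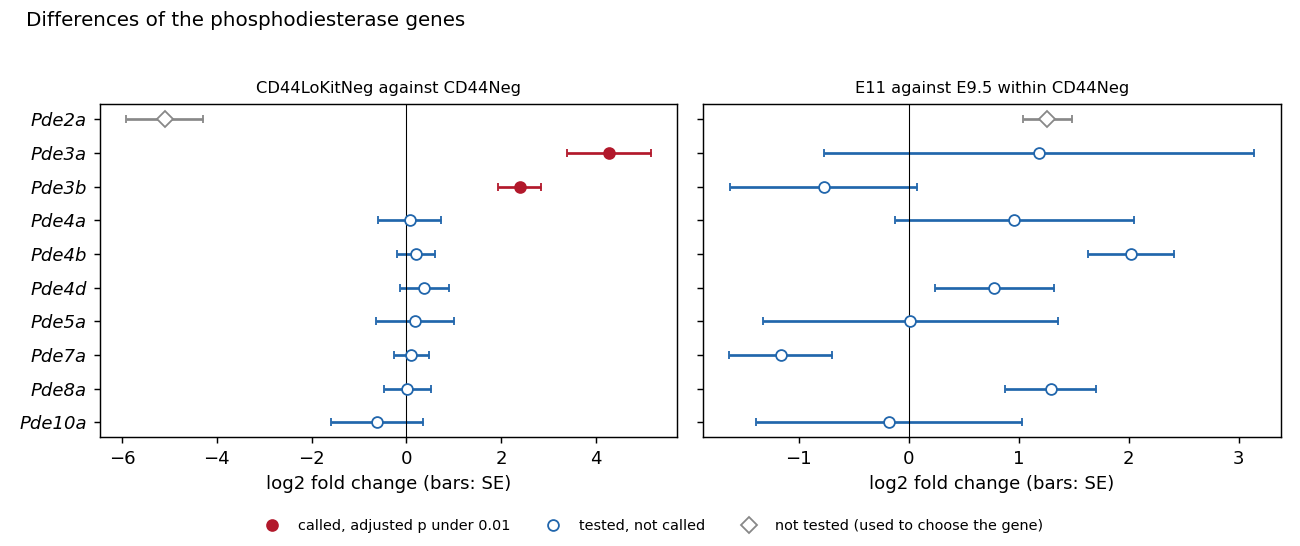
Log2 fold change and SE of each phosphodiesterase gene for CD44LoKitNeg against CD44Neg on the left and for E11 against E9.5 within CD44Neg on the right; filled points were called. *Pde3a* at 4.27 and *Pde3b* at 2.39 are called on the left, and none is called on the right, where *Pde4b* has the highest value at 2.02.

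Among the cAMP-specific members, *Pde4b*, an isoform with a known part in inflammatory signalling, was higher with stage in CD44Neg. It measured 35.6, 84.0, 20.1 and 76.1 normalized CPM at E9.5, 51.7, 85.5 and 86.8 at E10, and 168, 257 and 221 at E11. The E11 libraries were all above those of both earlier stages. The log2 fold change of E11 against E9.5 was 2.02 (SE 0.39), and the adjusted p of 0.0127 missed the threshold. In CD44LoKitNeg it measured 142 at E9.5, 88.8 and 135 at E10, and 164, 115 and 103 at E11, with no separation of the stages (log2 fold change 0.10, SE 0.29, adjusted p = 0.922).

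*Pde8a*, whose enzyme has a high affinity for cAMP, was higher at E11 in both endothelial populations. In CD44Neg it measured 11.4, 22.2, 21.8 and 16.9 normalized CPM at E9.5, 11.3, 23.9 and 14.5 at E10, and 41.3, 34.0 and 55.3 at E11. In CD44LoKitNeg it measured 10.5 at E9.5, 5.54 and 5.82 at E10, and 34.1, 50.1 and 46.2 at E11. In both populations the E11 libraries lay above all earlier ones. The log2 fold change was 1.29 (SE 0.41, adjusted p = 0.111) for E11 against E9.5 in CD44Neg and 2.62 (SE 0.52, adjusted p = 0.0407) for E11 against the earlier stages in CD44LoKitNeg, and neither passed the threshold.

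*Pde3a* also separated by stage in CD44LoKitNeg, with E11 at 57.1 ± 13.5 and the earlier stages at 11.7 ± 8.10 normalized CPM (n = 3 each), a log2 difference of 2.33 with an SE of 0.57 (adjusted p = 0.0785). *Pde7a*, a further cAMP-specific member, had the opposite sign, at -1.16 in CD44Neg (SE 0.47, adjusted p = 0.212) and -0.996 in CD44LoKitNeg (SE 0.51, adjusted p = 0.378). The other tested members had log2 fold changes between -0.77 and 1.19 in CD44Neg, and between -0.56 and 0.79 in CD44LoKitNeg.

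For E11 against E9.5 within CD44Neg, 0 of 9 members were called by edgeR, against 0.684% of 11250 genes; 3 had an unadjusted p under 0.05, beside 17.1% of all genes, and DESeq2 and limma voom called 1 each, *Pde4b*. For E11 against the earlier stages within CD44LoKitNeg, 0 of 9 were called, against 0.173% of 11010 genes; 2 had an unadjusted p under 0.05, beside 16.8% of all genes, DESeq2 called 2, *Pde3a* and *Pde8a*, and limma voom called 0. Without *Pde2a*, the libraries of the groups did not overlap for 2 of 9 members in CD44Neg, beside 20.5% of all genes tested, and for 2 of 9 in CD44LoKitNeg, beside 25.3%. The median log2 fold change over these 9 members was 0.78 in CD44Neg, beside 0.03 over all genes, and 0.41 in CD44LoKitNeg, beside 0.02. The summed endothelial list was also higher with stage, from 3950 to 4936 at E9.5 to 6447 to 7167 normalized CPM at E11 in CD44Neg, and from 4106 to 5612 at the earlier stages to 8117 to 10073 in CD44LoKitNeg. Other lists also separated the stages. In CD44Neg the arterial list summed to 1051 to 1356 at E11 against 525 to 980.3 at E9.5, the venous list to 705 to 1004 against 499.8 to 699.7, the blood list to 256 to 326 against 188 to 232, and the mesenchyme and smooth muscle list to 0.774 to 18.01 against 31.1 to 134. Within CD44LoKitNeg the separation was between E11 and the earlier stages. The arterial list summed to 5026 to 5886 at E11 against 2770 to 3257 earlier, the blood list to 94.96 to 154 against 233 to 379, and the macrophage list to 0 to 9.95 against 36.4 to 67.2. *Rn45s*, a ribosomal RNA precursor, took 17.4 to 19.2% of counts at E11 against 7.29 to 11.1% earlier in CD44LoKitNeg, and 15.2 to 17.9% at E11 against 1.92 to 13.8% at E9.5 in CD44Neg, and leaving it out moved no count of called members. The part of these lists in the stage differences was not tested.

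**Figure D3:**
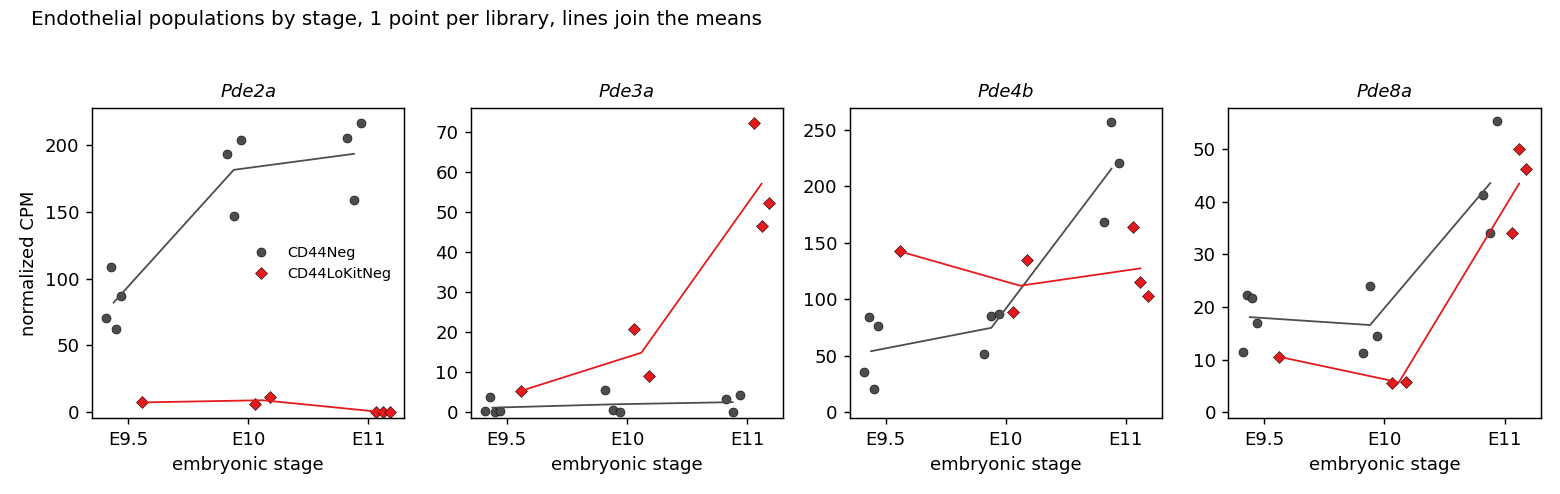
Normalized CPM of *Pde2a*, *Pde3a*, *Pde4b* and *Pde8a* in the CD44Neg (circles) and CD44LoKitNeg (diamonds) libraries at E9.5, E10 and E11, with lines through the means. *Pde2a* reaches 193 in CD44Neg and 0 in CD44LoKitNeg at E11, *Pde3a* is high only in CD44LoKitNeg, *Pde4b* crosses between E10 and E11, and *Pde8a* has nearly the same E11 mean in both, 43.6 and 43.5.

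From CD44LoKitNeg to the Kit-positive pre-HSPC population, no member passed the threshold. CD44LoKitPos had no E11 library, and 3 of the 6 CD44LoKitNeg libraries were from E11. Stage and population are therefore mixed in the values of this comparison, here and in the gene lists below. The lowest fold changes were those of *Pde3a*, *Pde8a* and *Pde10a*. *Pde3a* measured 3.02 normalized CPM in the E9.5 CD44LoKitPos library and 0 in both E10 libraries, below each CD44LoKitNeg library (log2 fold change -5.07, SE 1.77, adjusted p = 0.0610). *Pde8a* measured 6.48 at E9.5 and 0 and 0.133 at E10 (-3.52, SE 1.12, adjusted p = 0.0427). *Pde4b* measured 78.5 at E9.5 and 38.0 and 51.0 at E10, also below each CD44LoKitNeg library (-1.16, SE 0.55, adjusted p = 0.178). *Pde10a*, at 0 in 2 of the 3 CD44LoKitPos libraries, had -2.62 (SE 1.71, adjusted p = 0.345). At the stages shared with CD44LoKitPos, CD44LoKitNeg had *Pde3a* at 5.33 at E9.5 (n = 1) and a mean of 14.9 at E10 (n = 2). For *Pde8a* these levels were 10.5 and 5.68.

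Here 0 of 9 members were called by edgeR, against 4.26% of 12949 genes; 3 had an unadjusted p under 0.05, beside 27.2% of all genes, DESeq2 called 2, *Pde3a* and *Pde8a*, and limma voom called 0. The median over the 9 tested members was -1.04, beside -0.02 over all genes. The libraries did not overlap for 2 of these 9, *Pde3a* and *Pde4b*, beside 16.9% of all genes. The *Pde8a* value rested on the E9.5 library: without it the log2 fold change was -8.13 (adjusted p = 0.000999), and at E10 alone it was -5.97 (adjusted p = 0.000937). Without the same library *Pde3a* was at -10.65 (adjusted p = 0.0149), and without the 1 E10 library that held *Pde10a* counts, replicate 17, *Pde10a* was at -7.12 (adjusted p = 0.114), both fitted against 0 counts in the remaining CD44LoKitPos libraries. The E9.5 library also had the highest arterial sum of the 3, 1022 against 38.0 and 129 normalized CPM, and the lowest blood sum, 615 against 1455 and 1761. Their part in its levels was not tested. *Pde3b* measured 66.9 in that E9.5 library and 20.9 and 22.5 at E10, while *Pde7a* had means of 31.3 and 31.9 normalized CPM in CD44LoKitPos and CD44LoKitNeg, with ranges of 11.6 to 43.9 and 18.7 to 57.9.

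In CD44High, *Pde8a* had 0 counts in all 3 libraries, and against the CD44Neg mean of 25.3 ± 14.3 normalized CPM (n = 10) it was at least 34.3-fold lower (adjusted p = 0.000387). It was the 1 of 9 members called by edgeR and by limma voom, against 14.4% of 12949 genes in edgeR. In edgeR 4 had an unadjusted p under 0.05, beside 33.2% of all genes, and DESeq2 called 4, *Pde3b*, *Pde4b*, *Pde8a* and *Pde10a*. *Pde8a* passed the count filter through the endothelial populations, with 56 to 357 counts in CD44Neg, so nothing is read from these counts of members. Its call was kept in each of 20 alternatives, no filter among them. Of the 9, the libraries did not overlap for 1, *Pde8a*, beside 18.8% of all genes, and the median over the 9 was -0.48, beside -0.02. *Pde4b* measured 29.1, 22.6 and 30.5, below the CD44Neg mean of 109 ± 79.8 but within its range (log2 fold change -1.99, SE 0.56, adjusted p = 0.0117). *Pde3b* measured 67.1, 73.2 and 22.9, against 14.6 in CD44Neg (1.90, SE 0.54, adjusted p = 0.0119). All CD44High libraries are from E11, and against the E11 libraries of CD44Neg alone *Pde4b* passed the threshold as well (-3.03, adjusted p = 0.000318).

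Between CD44High and CD44LoKitPos, 0 of 10 members were called by edgeR, against 3.01% of 12949 genes; 1 had an unadjusted p under 0.05, beside 17.8% of all genes, DESeq2 called 1, *Pde8a*, and limma voom called 0. *Pde2a* was tested here, since neither population was used to choose it, and its log2 fold change was -1.52 (SE 1.19, adjusted p = 0.583). The 3 CD44High libraries of *Pde4b* all lay below the 3 of CD44LoKitPos, the only member without overlap, beside 23.9% of all genes. *Pde3a*, *Pde8a* and *Pde10a* passed the count filter through the endothelial populations and were at or near 0 in most libraries compared here, so nothing is read from the counts of members. The libraries had counts of 6, 3 and 0 in CD44High against 0, 0 and 20 in CD44LoKitPos for *Pde3a*, and 0, 1 and 0 against 9, 0 and 0 for *Pde10a*. *Pde8a* had 0 counts in CD44High against 0, 1 and 43 in CD44LoKitPos, with the 43 in the E9.5 library, and was at least 2.995-fold lower. The share of *Rn45s* also differed, at 16.6 to 23.9% of counts in CD44High and 6.82 to 9.26% in CD44LoKitPos. The part of the macrophage, erythroid and mesenchyme transcripts in the CD44High differences was not tested.

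For *Pde4a*, *Pde4d*, *Pde5a* and *Pde10a*, the ranges of populations next to each other in the order of means overlapped. *Pde4a*, a cAMP-specific isoform, ranged from 0.792 to 13.3 normalized CPM over all libraries, and *Pde4d*, an isoform known from heart and vessel wall, from 1.22 to 45.0. *Pde5a*, the cGMP-specific target of sildenafil and a known smooth muscle gene, ranged from 0 to 21.3. *Pde10a*, known for its high level in the striatum, ranged from 0 to 9.67, with its highest CD44High library at 0.266, below the floor of that library. In CD44High against CD44Neg, *Pde10a* had means of 0.0888 and 4.60 (log2 fold change -5.44, SE 2.06, adjusted p = 0.0604), and of edgeR, DESeq2 and limma voom, DESeq2 alone called it (adjusted p = 0.00745).

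The make-up of the family was compared on levels per kilobase of merged exons, since the genes differ in length. *Pde2a* had the highest mean level per kilobase in CD44Neg (23.6 ± 9.67 normalized CPM per kb, n = 10), *Pde4b* in CD44LoKitNeg (11.8 ± 2.63, n = 6) and in CD44LoKitPos (5.29 ± 1.96, n = 3), and *Pde3b* in CD44High (5.97 ± 3.02, n = 3). *Pde2a* made up 48.2% ± 9.38 of the summed level of the 10 genes in CD44Neg and 2.22% ± 2.70 in CD44LoKitNeg. *Pde3a* and *Pde3b* together with *Pde2a* and *Pde10a*, the members that act on both nucleotides, made up 53.2% ± 9.38 in CD44Neg and 31.9% ± 6.82 in CD44LoKitNeg. The 5 cAMP-specific genes made up 45.4% ± 9.34 and 66.2% ± 6.70 in the same order. The summed level was 48.6 ± 17.7 in CD44Neg, 37.1 ± 7.18 in CD44LoKitNeg, 17.7 ± 6.76 in CD44LoKitPos and 15.2 ± 3.16 in CD44High. These shares include *Pde2a*, which was chosen for its values, and were not tested.

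**Figure D4:**
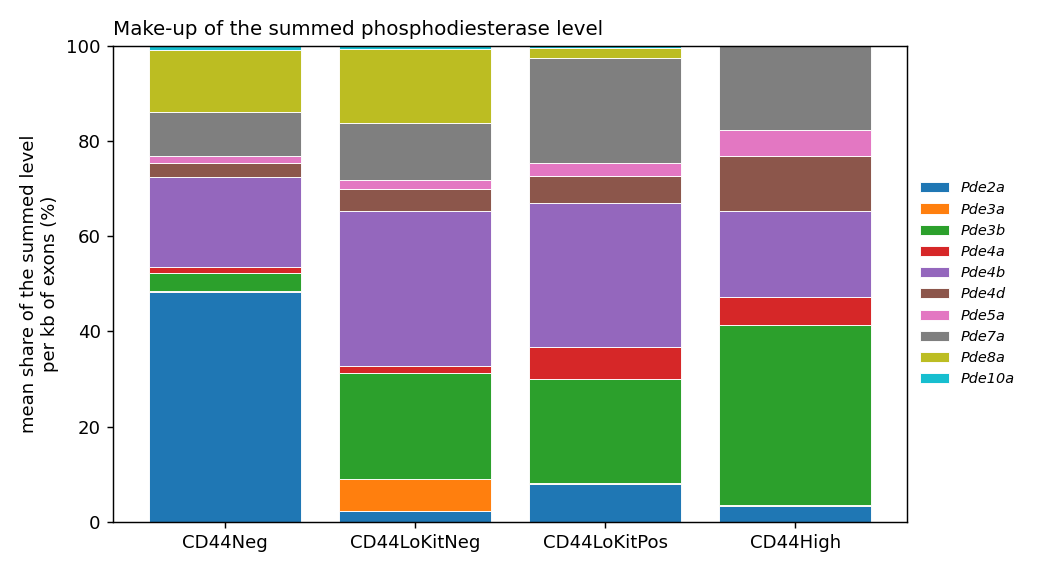
Mean share, in percent, that each gene makes up of the summed level per kilobase of exons of the 10 phosphodiesterase genes, by population. *Pde2a* fills 48.2% of the CD44Neg bar and 2.22% of the CD44LoKitNeg bar, and *Pde3b* fills 37.9% of the CD44High bar.

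The genes whose levels followed *Pde2a* most closely over the 22 libraries, of 12948 genes ranked by Pearson's r on log2 CPM, were *Ccnd1* (r = 0.918), the G1 cyclin D1, *Arhgap18* (0.916), a GTPase-activating protein, *Zfp41* (0.892), *Nrp2* (0.891) and *Lipt2* (0.887). *Ccnd1* had 170 ± 31.5 normalized CPM in CD44Neg and 21.3 ± 13.8 in CD44LoKitNeg. The genes nearest to *Pde3a* were *Wipf3* (0.903), *Gm10400* (0.870), *Fndc3a* (0.867), *Synpo* (0.861), an actin-binding protein gene, and *Tspan11* (0.854). *Gm10400* lies within *Pde3a* on the same strand with no shared exon bases, and it measured 31.5 ± 20.6 in CD44LoKitNeg and 0 counts in 9 of 10 CD44Neg libraries. Among the members themselves, *Pde2a* and *Pde3b* had r = -0.72, *Pde4b* and *Pde8a* 0.68, and *Pde8a* and *Pde10a* 0.56. These are descriptions over libraries that share populations and stages.

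Of the other 14 phosphodiesterase genes listed, 3 passed the count filter between the endothelial populations, and 1 was called. This was *Pde9a*, whose enzyme is specific for cGMP. It measured 30.4 to 73.7 normalized CPM over the 6 CD44LoKitNeg libraries and 2.28 to 25.5 over the 10 of CD44Neg, with no overlap (log2 fold change 2.30, SE 0.41, adjusted p = 0.000600). In the other comparisons 4 or 5 were tested and edgeR called 0, with 0 to 2 at an unadjusted p under 0.05. DESeq2 called *Pde9a* in CD44LoKitPos against CD44LoKitNeg and in CD44High against CD44Neg, and *Pde1b* between the stages of CD44LoKitNeg, and limma voom called *Pde9a* in the first of these.

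Among 21 cyclase genes, 8 were tested between the endothelial populations, and edgeR, DESeq2 and limma voom each called 0, with 0 at an unadjusted p under 0.05. Their median log2 fold change was 0.56. In CD44LoKitPos against CD44LoKitNeg, 2 of 11 fell in edgeR, which called 4.26% of all genes. They were *Npr1*, the natriuretic peptide receptor that makes cGMP, at 9.33 ± 7.20 against 71.7 ± 32.5 normalized CPM (log2 fold change -2.94, adjusted p = 0.00477), and *Adcy4*, an adenylyl cyclase, at 7.53 ± 6.21 against 75.0 ± 41.8 (-3.32, adjusted p = 0.00262). DESeq2 called both, and limma voom called neither but *Adcy7* and *Gucy1a3*, whose direction in this comparison is not given here. In CD44High against CD44Neg, where edgeR called 14.4% of all genes, 2 of 11 rose. They were *Gucy1a3*, a subunit of soluble guanylyl cyclase, at 27.0 ± 4.60 against 0.0758 ± 0.240, and *Adcy7* at 90.9 ± 19.1 against 0.554 ± 0.962. *Npr1* and *Adcy4* fell there, and *Adcy4* also fell in CD44High against CD44LoKitPos (0.0907 ± 0.157 against 7.53 ± 6.21, adjusted p = 0.000652). Limma voom did not call *Npr1* in the first of these comparisons or *Adcy4* in the second. Between the stages edgeR called 0 cyclases in either endothelial population, with 2 of 7 in CD44Neg and 4 of 9 in CD44LoKitNeg at an unadjusted p under 0.05, beside 17.1% and 16.8% of all genes. DESeq2 called 1 in CD44Neg, *Npr1*, and limma voom 0.

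Of 18 genes of Gs-coupled receptors and their partners, 2 of 7 tested rose in CD44LoKitNeg against CD44Neg in edgeR, which called 10.2% of all genes. DESeq2 and limma voom also called *Ramp3*, lower in CD44LoKitNeg (log2 fold change -3.54, adjusted p = 0.0266 in edgeR). *Calcrl*, the receptor of adrenomedullin, rose to 1838 ± 191 from 293 ± 108 normalized CPM (log2 fold change 2.66, SE 0.21, adjusted p = 4.22e-07), with no overlap, and its partner *Ramp2* rose to 1102 ± 692 from 421 ± 118 (1.40, SE 0.30, adjusted p = 0.00257), a call that limma voom did not make. The median over the list was 1.40, beside 0.01 over all genes. *Ramp2* was also called higher at E11 within CD44LoKitNeg (1730 ± 82.0 against 474 ± 92.1, n = 3 each). The pooled CD44LoKitNeg mean of 1102 thus mixes 2 levels, and the earlier one was near the CD44Neg mean of 421 over all stages. No within-stage difference between the populations is given for *Ramp2*. *Gnas*, the Gs alpha subunit gene, was called by edgeR at E11 against E9.5 in CD44Neg (1344 ± 238 against 518 ± 106, adjusted p = 0.00854), and DESeq2 and limma voom called *Gnas* and *Ramp2* there. Both *Calcrl* and *Ramp2* fell in CD44LoKitPos against CD44LoKitNeg and again in CD44High against CD44LoKitPos, where limma voom did not call *Ramp2*. CD44LoKitPos had no E11 library, so the first *Ramp2* fall, to 150 ± 98.3 from 1102, mixes stage with population. The E9.5 and E10 libraries of CD44LoKitNeg alone averaged 474. In CD44High against CD44Neg, where edgeR called 14.4% of all genes, 1 of 11 rose, *Ramp1*, at least 93.7-fold. It had 0 counts in CD44Neg and passed the count filter through other populations. In the same comparison 4 fell, with *Ramp2* and *Adora2a*, an adenosine receptor, furthest down.

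Of 22 effector genes, 16 were tested between the endothelial populations and 1 fell in edgeR, which called 10.2% of all genes. This was *Pkig*, an inhibitor of protein kinase A, at 56.3 ± 14.7 against 107 ± 30.8 normalized CPM (log2 fold change -0.93, adjusted p = 0.00536). DESeq2 and limma voom called *Pkig* and *Prkacb*, and DESeq2 also called *Rapgef3*. The directions of *Prkacb* and *Rapgef3* are not given here. The median over the list was 0.20. Between the stages edgeR, DESeq2 and limma voom called 0 of 16 effectors in either endothelial population, with 3 in CD44Neg and 1 in CD44LoKitNeg at an unadjusted p under 0.05 in edgeR. In CD44LoKitPos against CD44LoKitNeg, where edgeR called 4.26% of all genes, 2 of 19 fell. They were *Crem*, a factor that binds the cAMP response element, at 12.7 ± 10.1 against 91.8 ± 65.9, and *Rapgef4*, a cAMP-activated exchange factor, at 4.97 ± 8.49 against 63.8 ± 12.5. *Rapgef3*, of the same kind as *Rapgef4*, was the 1 of 19 called by edgeR in CD44High against CD44LoKitPos, beside 3.01% of all genes. It was at 0 counts in CD44High and at least 4.87-fold lower. DESeq2 called *Rapgef3* and *Rapgef4* there, and limma voom only *Pkib*, whose direction there is not given here. In CD44High against CD44Neg, *Pkib*, which DESeq2 did not call, and *Atf1* rose, and *Rapgef3* and *Rapgef4*, both at 0 counts in CD44High, were at least 45.6-fold and 103-fold lower. *Pkib* had 0 counts in CD44Neg and passed the count filter through other populations.

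**Figure D5:**
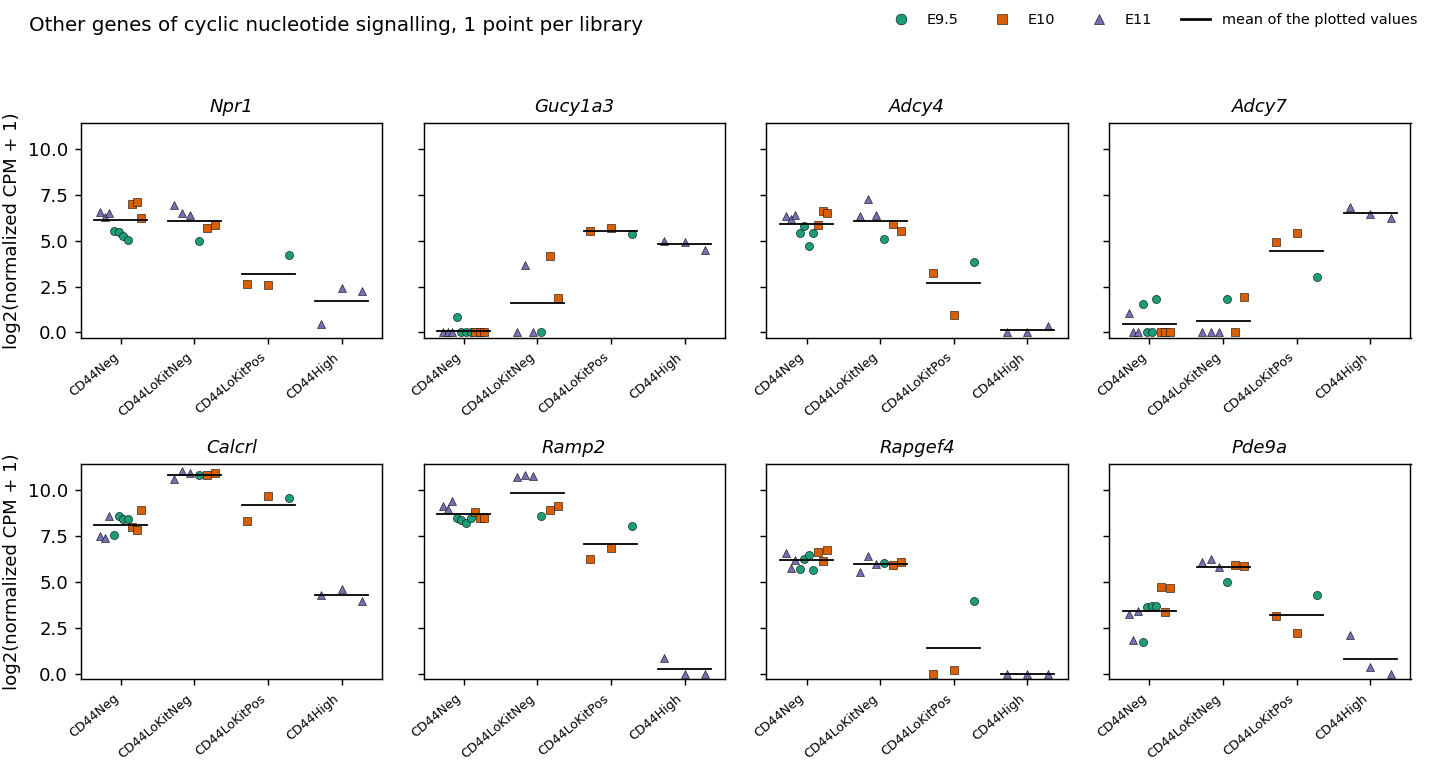
Level of 8 other cyclic nucleotide genes as log2(normalized CPM + 1) in the 22 libraries, by population, with colour and shape for the stage and a bar at the mean of the plotted values. *Pde9a* and *Calcrl* are higher in every CD44LoKitNeg library than in any CD44Neg library, and *Adcy4* and *Rapgef4* are at or near 0 in the 3 CD44High libraries.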

How the data were processed

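RNA of 25 sorted cells per library was amplified with SMART-Seq2 and sequenced. The authors clipped adaptors with FASTX, mapped with RNA STAR and counted with htseq-count, and deposited raw counts per gene symbol; the processing notes list mm10, FastQC and HTSeq. The annotation, the strand setting and the treatment of shared reads are not given in the sources used here. Groups and stages came from the labels. All 24454 genes entered the count filter, and 11010 to 12949 genes passed it in the fits. Genes were kept by edgeR 4.0.16 filterByExpr (minimum count 10, minimum total 15), scaled by TMM and tested with the quasi-likelihood test (R 4.3.3, prior count 0.125), with Benjamini-Hochberg adjustment over all genes tested and a threshold of 0.01. Endothelial populations were compared in 16 libraries, blood populations in 1 fit of 22, stages within 1 population, and the change of difference over 11 libraries. DESeq2 1.42.0, limma 3.58.1 voom, other scaling, no filter, stage terms and left-out libraries were alternatives. Likeness used log2 CPM with a prior count of 2. Scripts were tested on simulated data. Same-group pairs differed beyond sampling noise (chi-square per degree of freedom 17.0 to 85.2 over 20 pairs), so none was merged. The members and all gene lists were chosen with earlier results of these data known. Named genes were the 10 members, up to 2 called genes in each direction per pathway list and comparison, and the 5 genes most like *Pde2a* and *Pde3a*.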

Additional observations from a re-analysis of the deposited data

Results flagged for a closer look

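Of 20 groups of 4 to 10 libraries examined for a single distant value, 1 had one, and chance gives about 1 in 20. It was *Pde4d* in CD44Neg replicate 3, from E11, at 37.6 normalized CPM, with the next library at 20.7. The population difference of *Pde2a* changed by -8.85 on the log2 scale from E10 to E11, the value that chose the gene. The population difference of *Pde4b* changed by -1.36. Its CD44LoKitNeg libraries were all above CD44Neg at E10 (112 ± 32.7, n = 2, against 74.6 ± 19.9, n = 3) and all below at E11 (127 ± 32.7 against 215 ± 44.5, n = 3 each). In the contrast that chose *Pde2a*, which called 1 of 12403 genes, *Pde4b* was not called.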

How the results depend on the processing

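Counts of called members depended on the setting. For CD44LoKitNeg against CD44Neg the count of 2 was 1 with the stage as a covariate and 0 within E11 or E10 alone. It was 2 without any 1 library. For CD44LoKitPos against CD44LoKitNeg the count of 0 was 1 at a threshold of 0.05, 2 with DESeq2, 1 at E10 alone and 0 to 1 with 1 library left out, with *Pde8a* called without CD44LoKitPos replicate 19. For CD44High against CD44LoKitPos it was 1 with DESeq2 and with the stage as a covariate, *Pde8a*, where these populations share no stage and the stage term came from the endothelial libraries. For CD44High against CD44Neg the count of 1 was 3 at a threshold of 0.05, 4 with DESeq2, 2 with the stage as a covariate and 2 within E11. With 1 library left out it was 1 to 2: *Pde3b* joined without CD44Neg replicate 3 or 5, and *Pde4b* without CD44Neg replicate 4, 6 or 8 (log2 fold change -2.11 in each). For E11 against E9.5 within CD44Neg the count of 0 was 1 at a threshold of 0.05, with no filter, with DESeq2 and with limma voom, *Pde4b* each time. For E11 within CD44LoKitNeg it was 1 at a threshold of 0.05 and 2 with DESeq2. *Pde10a* for CD44High against CD44LoKitPos, not called, was at -2.19 and ranged from -4.50 to 2.28 with 1 library left out, positive without CD44LoKitPos replicate 17 alone. The cause of these changes was not tested. Of 33 log2 differences below 1, 21 had the opposite sign in at least 1 alternative, and none passed the threshold. Leaving out *Rn45s*, which took 1.92 to 23.9% of counts, was an alternative chosen after seeing the data, and it moved no count of called members.

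No paired analysis was possible because the labels number the libraries once through the series. Populations with 1 to 3 libraries per stage limit the tests within a stage.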
